A study of Mus musculus with 4 samples.

Results

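The mitotic cell cycle and DNA replication genes were followed on 4 arrays of mouse mammary tumours. The set was a list of 44 genes, and each gene was read on its brightest probe set that carries 1 gene symbol. Of the 44, 43 had such a probe set, out of 12393 genes on the array that did. Ccnb1, a mitotic cyclin, was not matched and is not analysed here. The tumours came from nulliparous female mice of the FVB strain that had been given 15 mg of the progestin MP (Depo-Provera) and then 4 weekly oral doses of 1 mg of the carcinogen DMBA. The animals were wild type (WT) or MMTV-PAX8PPARg transgenic littermates, whose transgene joins PAX8, a transcription factor, to PPARg, a nuclear receptor. The MMTV promoter (of mouse mammary tumour virus) drives it, mainly in epithelium of the mammary gland. Each mouse received 60-day pellets of placebo or of 2.5 mg RU486 (mifepristone, which blocks the receptors for progesterone and glucocorticoids) beginning 1 day after DMBA ended, with a second pellet 60 days later. The 4 groups combine WT or PAX8PPARg with placebo or RU486, and all were exposed to MP and DMBA. Each had 1 Affymetrix array hybridised with RNA pooled from 5 mice. The spread between mice is therefore unknown, differences between single arrays have no test, and array and group cannot be told apart. With 4 arrays in all, precision is limited throughout.

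The genes of the set act in an ordered chain. Before S phase, Cdc6 and Cdt1 load the Mcm2 to Mcm7 helicase on origins, which fire once cyclin-dependent kinases and Cdc45 act on them, while the E2F1 factor drives the genes of replication and of nucleotide supply. In G2 and M phase the FOXM1 factor and the kinase Cdk1 with its cyclins drive mitosis. The spindle checkpoint holds anaphase back, and the anaphase promoting complex starts it. In the mammary gland, progesterone is known to drive proliferation of epithelium, partly through RANKL released by hormone-sensing cells, and cell cycle transcripts are widely read as a measure of the dividing cells in a tumour.

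Promoters of the set are shown as a description only, and a link between their letters and the levels on the arrays was not tested. The promoter windows, from 250 bases before to 50 bases after the transcription start, were taken from RefSeq on GRCm38.p6, and 35 of the 43 measured members had a window, 37 windows in all. Motifs were searched as letters on both strands: TTTGAA, the cell cycle genes homology region (CHR) bound by the DREAM and MuvB complexes, CCAAT, the box bound by NF-Y, and the E2F letters TTTCCCGC, TTTGGCGC, TTTCGCGC and TTTGCCGC. The windows below are those of Cdk1 (chr10:69352863-69353162, minus strand) and Mcm2 (chr6:88898731-88899030, minus strand), which hold such letters, and those of the members with the largest RU486 difference in each genotype, Birc5 in PAX8PPARg (chr11:117848987-117849286, plus strand) and Nusap1 in WT (chr2:119618048-119618347, plus strand), in which none of these letters was found. Capitals mark the matches, and CCAAT on the other strand reads ATTGG.
Cdk1: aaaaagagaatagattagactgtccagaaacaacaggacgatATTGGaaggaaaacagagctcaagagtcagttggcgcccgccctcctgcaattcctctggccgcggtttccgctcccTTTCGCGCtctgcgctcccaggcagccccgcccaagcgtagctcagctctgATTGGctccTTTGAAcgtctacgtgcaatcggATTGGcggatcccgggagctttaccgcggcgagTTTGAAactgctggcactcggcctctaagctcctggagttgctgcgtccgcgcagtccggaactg
Mcm2: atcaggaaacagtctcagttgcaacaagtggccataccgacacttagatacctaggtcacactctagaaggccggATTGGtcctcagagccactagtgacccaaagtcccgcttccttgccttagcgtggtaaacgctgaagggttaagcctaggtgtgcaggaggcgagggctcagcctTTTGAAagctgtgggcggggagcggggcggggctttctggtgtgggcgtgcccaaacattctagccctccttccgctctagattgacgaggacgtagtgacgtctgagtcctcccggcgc
Birc5: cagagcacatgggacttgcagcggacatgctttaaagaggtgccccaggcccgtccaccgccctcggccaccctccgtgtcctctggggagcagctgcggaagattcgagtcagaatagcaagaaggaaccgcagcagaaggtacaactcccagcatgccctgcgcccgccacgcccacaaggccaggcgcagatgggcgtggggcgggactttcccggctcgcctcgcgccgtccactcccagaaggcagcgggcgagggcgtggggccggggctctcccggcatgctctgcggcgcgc
Nusap1: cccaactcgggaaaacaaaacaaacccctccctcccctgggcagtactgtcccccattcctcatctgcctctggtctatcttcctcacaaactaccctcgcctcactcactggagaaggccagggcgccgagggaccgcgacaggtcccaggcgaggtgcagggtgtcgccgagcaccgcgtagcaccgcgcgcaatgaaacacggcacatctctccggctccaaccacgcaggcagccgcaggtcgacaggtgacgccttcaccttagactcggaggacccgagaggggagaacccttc
In the Cdk1 window, TTTGAA begins 71 and 15 bases before the start site, CCAAT is on the minus strand at 3 places, and an E2F match begins 131 bases before it. In the Mcm2 window, TTTGAA begins 70 bases before the start site.

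TTTGAA was present in 43.2% of member windows against 17.9% of all 32851 windows and 12.9% of the 12566 windows of genes on the array. CCAAT was present in 70.3% of member windows against 37.4% of all windows and 37.1% of those of genes on the array. The E2F letters were present in 18.9% against 2.26% and 3.38%. The 7 members with E2F letters were Cdc6, Cdk1, Cdt1, Mcm3, Mcm5, Mcm6 and Mcm7, which all but Cdk1 belong to origin licensing. TTTGAA was found in 15 members, among them Aurka, Bub1b, Ccnb2, Cdc20, Mki67, Plk1 and Top2a. A match of letters is a description of the window, and its absence says nothing of a factor. Split by TTTGAA, the RU486 difference had a median of 0.59 log2 in PAX8PPARg for the 15 members with the letters and 0.44 for the 20 without, and of -0.09 and -0.22 in WT. Split by CCAAT or by the E2F letters, the order in PAX8PPARg was the other way: 0.44 for the 24 members with CCAAT and 0.76 for the 11 without, and 0.37 for the 7 with E2F letters and 0.58 for the 28 without. In WT these medians were -0.17 and 0.08 for CCAAT and -0.39 and -0.11 for the E2F letters. No split was tested.

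Signals below are in the deposited linear intensity, always in the order WT with placebo, WT with RU486, PAX8PPARg with placebo, PAX8PPARg with RU486. A difference subtracts the group named second from the group named first after log2(signal + 16) and centring of the array medians. Folds of 1.5 and 2 refer to that scale, which understates differences of dim genes.

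The arrays differed in features beyond the cell cycle genes. Spike-in control probe sets were 1.59 and 2.43 times as bright on the WT RU486 and PAX8PPARg RU486 arrays as on the WT placebo array, and the highest bacterial control, taken here as the background range, was 9.6, 18.5, 8.3 and 35.3. Gapdh, read at both ends of the transcript, had 3' over 5' ratios from 2.51 to 3.33. The tissue label was checked with 10 luminal epithelial genes. Their summed signal was 37607, 6285, 33969 and 37848, so these markers were low on the WT RU486 array, with Elf3 within the background range there. Each pairwise comparison that uses that array is given beside one that does not. The difference of the RU486 effects between genotypes and the additive fit also use it, and have no such counterpart. Tyms on the PAX8PPARg RU486 array was the only member signal within the background range.

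The members were highest on the PAX8PPARg RU486 array. That array held the highest of the 4 levels for 30 of 43 members, against 29.2% of all genes, and the lowest for 0 of 43. The WT RU486 array held the lowest for 23 of 43, against 26.7% of all genes. The steps were small: the 4 levels of a member spanned a median of 0.66 log2, against 0.70 for genes at or above the median level, and 6 members (Tk1, Bub1, Bub1b, Birc5, Nusap1 and Foxm1) spanned at least 2-fold. In 16 members, among them Top2a, Mcm6, Rrm1, Aurka and Gmnn, no comparison between groups that differ in 1 factor reached 1.5-fold. Neither count was taken over all genes, so neither is read as a trait of the members. As the arrays are of bulk tissue, fewer dividing cells and less RNA per cell cannot be told apart.

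**Figure D1:**
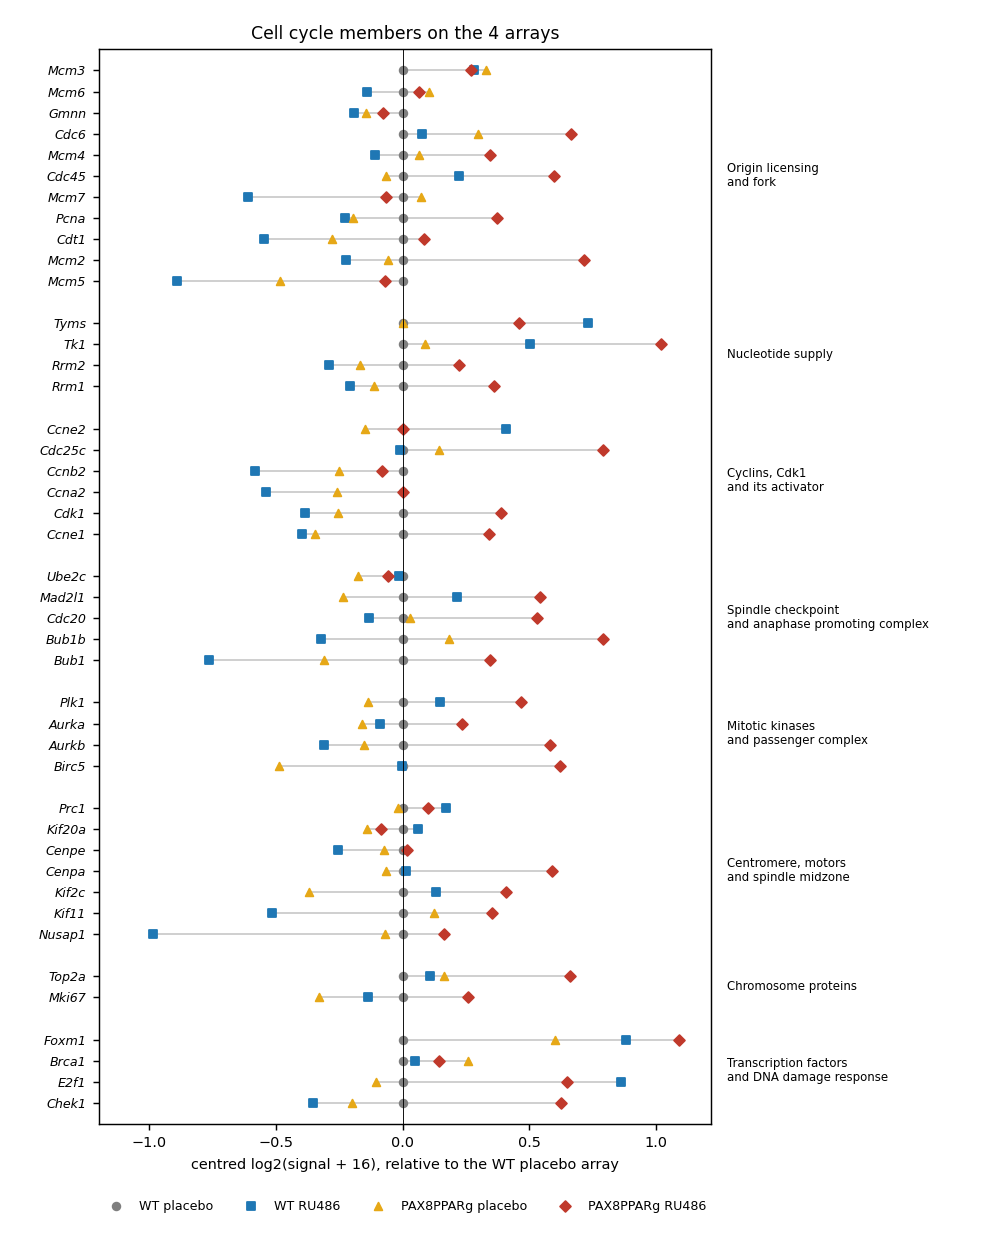
Level of each of the 43 members on the 4 arrays, as centred log2(signal + 16) relative to the WT placebo array, with members grouped by role. Points are single arrays of pooled RNA. The PAX8PPARg RU486 array is the rightmost point for 30 members and the WT RU486 array the leftmost for 23.

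The comparison of RU486 with placebo in WT asked how the antagonist bears on these genes in tumours without the transgene. The members lay near their placebo level there, with a median difference of -0.13 log2 (SD over members 0.42) against 0.01 for all genes. At 2-fold, 0 of the 43 were higher (7.46% of all genes) and 0 lower (8.88%). The difference was above 0 for 16 of 43 (50.8% of all genes). At 1.5-fold, 3 members were higher (17.6% of all genes) and 4 lower (17.4%), both smaller shares than over all genes. Of the 33 members at or above the median level, 1 was higher (13.3% of genes at that level) and 3 lower (17.3%). The 3 higher ones were Foxm1, E2f1 and Tyms, and the 4 lower ones Nusap1, Mcm5, Bub1 and Mcm7. On the same arrays 9 of 10 luminal epithelial markers lay past 2-fold on the lower side (median -3.34), as did 10 of 10 basal and squamous markers (median -3.88). The 8 macrophage markers all lay past 2-fold on the higher side (median 2.32). Their part in the members' values was not tested.

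In PAX8PPARg, RU486 went with higher levels of most members. The difference was above 0 for 39 of 43 members (59.5% of all genes), with a median of 0.48 log2 (SD over members 0.30), against 0.13 for all genes and 0.05 for genes at or above the median level. At least 1.5-fold higher were 17 members (22.7% of all genes) and at least 1.5-fold lower 0 (14.1%). Of the 33 members at or above the median level, 11 were higher (13.4% of genes at that level) and 0 lower (12.3%). Of the 17, Mki67, Cdk1, Ccne1, Cdc25c, Bub1, Bub1b, Mad2l1, Aurkb, Plk1, Birc5, Cenpa and Kif2c belong to cell cycle control and mitosis, Cdc45, Mcm2 and Tk1 to replication, and E2f1 and Chek1 to transcription and damage response. Birc5 alone was at least 2-fold higher (10.6% of all genes) and 0 were 2-fold lower (7.08%). The count at 1.5-fold depended on the scaling. Without centring of the arrays it was 8 of 43 against 17.8% of all genes, a share near the background, and with a pseudocount of 64 it was 9 against 12.3%. The number above 0 was 34 without centring (49.8% of all genes) and 42 with averaged probe sets (61.3%), the lowest and the highest over the alternatives. Without centring, the median of all genes was 0.00 in place of 0.13 and that of the members 0.34. Centring moves every gene of an array by the same amount. It therefore cannot change the distance of the members from all genes, and that distance is no separate support. Among genes of like level, the 19 members in the highest quartile of signal had a median of 0.28 against 0.11 for all genes there, and the 14 members in the next quartile 0.63 against -0.02. The array with the higher members also had the brightest spike-in controls, and the PAX8PPARg placebo array held summed signals of 21900.2 for adipocyte, 3493 for B and plasma cell and 3512 for T and NK cell markers against 3489, 210 and 372 under RU486. The basal and squamous list had a median of 2.50 in this comparison and the luminal list 0.50. The part of these differences in the members' values was not tested.

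**Figure D2:**
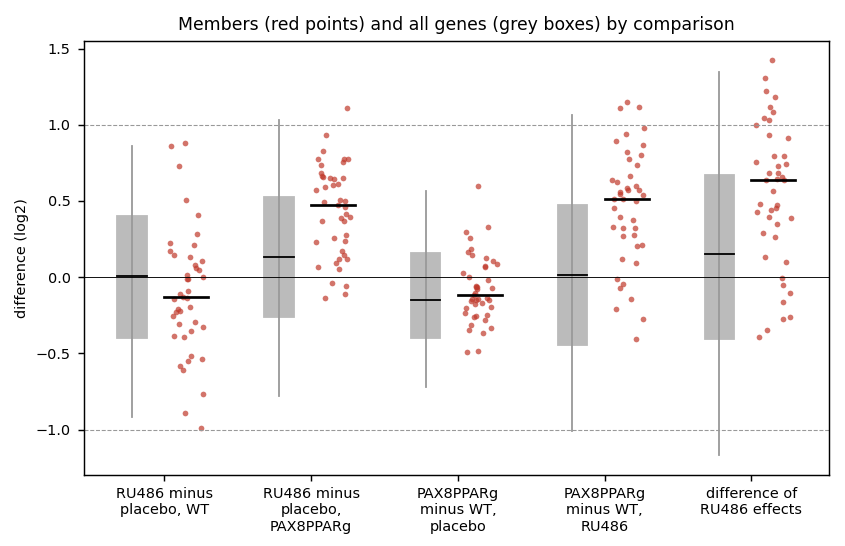
Differences of the 43 members (red points, black line at their median) beside all 12393 genes (grey box from the 25th to the 75th percentile with the median, whiskers from the 10th to the 90th) in 5 comparisons, in log2, with dashed lines at 2-fold. The member medians were -0.13, 0.48, -0.11, 0.52 and 0.64 from left to right.

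Between genotypes, the members lay within 2-fold under placebo and were mostly higher in PAX8PPARg under RU486. Under placebo the median of PAX8PPARg minus WT was -0.11 log2, against -0.15 for all genes, with 14 of 43 above 0 (35.9% of all genes). Without centring the median was 0.08 and 30 of 43 were above 0 (54.5% of all genes), so no direction is read from it. At 1.5-fold, 1 member, Foxm1, was higher (9.66% of all genes) and 0 were lower (14.5%), and 0 of the 33 at or above the median level were higher (5.23%) or lower (13%). At 2-fold, 0 were higher (4.34%) and 0 lower (5.49%). Under placebo the marker lists had medians of 3.67 (B and plasma cells), 3.01 (adipocytes), 2.18 (T and NK cells) and -2.33 (basal and squamous). The other lists had -0.42 (luminal), -0.11 (macrophages), -0.63 (fibroblasts) and 0.58 (endothelium). The part of these lists in the members' values was not tested. Under RU486 the median of the members was 0.52 against 0.01 for all genes, and 36 of 43 were above 0 (51% of all genes). At least 1.5-fold higher were 16 members (21%) and at least 1.5-fold lower 0 (20%). Of the 33 at or above the median level, 11 were higher (14.9%) and 0 lower (20.7%). At least 2-fold higher were 3 members, Nusap1, Bub1b and Bub1, a smaller share than the 10.9% of all genes. The dimmer second probe sets of Nusap1 and Bub1 gave 0.64 and 0.21, short of 2-fold. In other members a further probe set was past 2-fold where the brightest was not. These were Rrm2 (1.49), Cdc20 (1.46), Kif2c (1.05), Mcm7 (1.02) and Aurkb (1.005), so the count depends on the probe set. At least 2-fold lower were 0 (10.2%). In this last comparison the luminal list had a median of 3.66 and the macrophage list of -2.21, and their part in the members' values was not tested.

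The RU486 difference in PAX8PPARg minus that in WT was above 0 for 35 of 43 members (58% of all genes), with a median of 0.64 log2 against 0.15 for all genes. On the scale of a ratio of ratios, 22 members were at least 1.5-fold higher (28.7% of all genes) and 0 at least 1.5-fold lower (19.8%), and 8 were at least 2-fold higher (15.6%) and 0 lower (12.2%). Of the 33 at or above the median level, 18 were at least 1.5-fold higher (24.9%) and 0 lower (17.4%). The 8 were Bub1, Mcm5, Nusap1, Chek1, Birc5, Ccne1, Aurkb and Cdk1, a share near the 15.6% of all genes. Further Chek1 probe sets above background gave 0.44 and -0.73. The differences share arrays between comparisons, since each array enters 3 of the 5, the WT RU486 array with its low luminal markers included. In this difference of effects the luminal list had a median of 3.77, the basal and squamous list 6.36 and the macrophage list -2.13. Their part in the members' values was not tested.

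**Figure D3:**
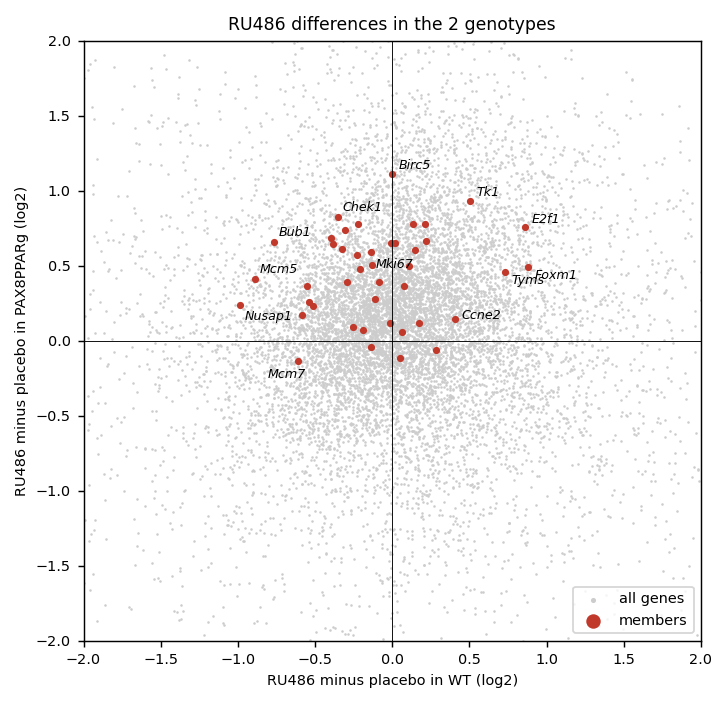
RU486 minus placebo in WT (x axis) against PAX8PPARg (y axis), in log2, for members (red) and all genes (grey); 880 of 12393 genes lie beyond the axes of 2 log2. The axes share no array. Most members lie above 0 on the y axis and on either side of 0 on the x axis.

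A fit of additive effects of RU486 and genotype over the 4 arrays, which left 1 residual degree of freedom, was run with limma on the 6197 genes at or above the median level. It held 33 of the 43 members. With Benjamini-Hochberg adjustment, 0 genes passed 0.05 for either effect (0% of genes), while 271 had an unadjusted p under 0.05 for RU486 and 286 for PAX8PPARg, and 0 of the 33 members were among them in either case. The lowest p of a member for RU486 was that of E2f1, with an effect of 0.81 log2 (SE 0.33, limma adjusted p = 0.98) and a higher value in both genotypes.

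The helicase and origin genes differed among themselves. Mcm5, a subunit of the replicative helicase, had signals of 572, 301, 463 and 566. It was lowest on the WT RU486 array, followed by the PAX8PPARg placebo array, and its RU486 difference was -0.89 in WT and 0.41 in PAX8PPARg. Mcm2, another subunit, had 261, 221, 288 and 458, with the PAX8PPARg RU486 array highest and the other arrays within 1.5-fold of each other. Its difference was -0.22 in WT and 0.78 in PAX8PPARg, and its second probe set gave -0.12 and 0.70. Mcm7 had 2242, 1463, 2696 and 2230.4, lower under RU486 in WT (-0.61), and all 3 further probe sets were lower there too (-0.67, -0.75 and -0.47). In PAX8PPARg Mcm7 differed by -0.14, the lowest value of the members. Its further probe sets gave 0.007, -0.10 and 0.41 in PAX8PPARg, so no direction is read from Mcm7 there. Mcm3 had 1014, 1238, 1462 and 1276 on its brightest probe set, with the highest level on the PAX8PPARg placebo array and differences of 0.28 in WT and -0.06 in PAX8PPARg. Its 4 further probe sets gave 0.09, 0.26, 0.21 and 0.52 in PAX8PPARg, so no direction is read from Mcm3 there, while all 5 were above 0 in WT.

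Cdc6, which loads the helicase, had 130.4, 138, 189 and 225, and Cdt1, its partner, had 928, 629, 871 and 1026. Cdt1 was lowest under RU486 in WT, with differences of -0.55 in WT and 0.37 in PAX8PPARg, but its second probe set gave -0.04 and -0.14. Gmnn, the inhibitor of Cdt1, stayed close to level on the arrays (904, 788, 933 and 892). Mcm4 and Mcm6 differed by -0.11 and -0.14 in WT and by 0.28 and -0.04 in PAX8PPARg, where the second probe set of Mcm6 gave 0.13. Cdc45, which activates the helicase, was among the dimmer members (69.2, 83.3, 77.0 and 118) with 0.22 in WT and 0.66 in PAX8PPARg. Pcna, the sliding clamp of DNA polymerase, had 3162, 2699, 3148 and 4271. The first 3 values lie close together and the last is the highest, and the differences were -0.23 in WT and 0.57 in PAX8PPARg. The group of 11 had a median of -0.19 in WT and 0.37 in PAX8PPARg.

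The 4 genes of nucleotide supply had a median of 0.15 in WT and 0.47 in PAX8PPARg. Tk1, the thymidine kinase of S phase, had 261, 377, 320.4 and 569, higher under RU486 in both genotypes, by 0.51 in WT and 0.93 in PAX8PPARg. Both subunits of ribonucleotide reductase followed the common pattern. Rrm1 had 1733, 1497, 1828 and 2321 and Rrm2 1966, 1602, 1998 and 2391, lowest on the WT RU486 array and highest on the PAX8PPARg RU486 array. A dimmer Rrm2 probe set showed larger differences of -0.93 and 0.71. Tyms, the thymidylate synthase, was dim (16.4, 37.8, 21.0 and 30.4), within the background range on the last array, and its 3 probe sets differed in sign, so no direction is read from it.

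Cdk1, the kinase that starts mitosis, had 785, 597, 749 and 1074. The WT RU486 value was the lowest and the PAX8PPARg RU486 value the highest, with differences of -0.39 in WT and 0.64 in PAX8PPARg. The mitotic cyclins had their lowest level on the same array. Ccna2 had 1294, 886, 1234 and 1349 and Ccnb2 592, 389.8, 567 and 582, and in both the WT placebo array was close to the PAX8PPARg RU486 array. Their differences were -0.54 in WT and 0.26 in PAX8PPARg for Ccna2 and -0.58 in WT and 0.17 in PAX8PPARg for Ccnb2. Ccne1, the cyclin of the G1 to S transition, had 129.7, 94.7, 115 and 176 (-0.40 in WT and 0.69 in PAX8PPARg). Its paralogue Ccne2 had 65.8, 92.5, 68.3 and 69.1, with its highest level on the WT RU486 array, and was the member with the lowest PAX8PPARg minus WT value under RU486 (-0.41). Cdc25c, the phosphatase that activates Cdk1, had 74.5, 73.9, 98.0 and 147, level in WT and 0.65 in PAX8PPARg.

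Of the spindle checkpoint and anaphase genes, the checkpoint kinase gene Bub1 went opposite ways by at least 1.5-fold in the genotypes, which 4.45% of all genes also did in that direction. Its signals were 204, 113, 186 and 274, with differences of -0.77 in WT and 0.66 in PAX8PPARg. A dimmer second probe set, above the background range on 2 of 4 arrays, gave -0.39 and 0.52. Bub1b, a further checkpoint component, had 280.2, 220.5, 368 and 518, so both PAX8PPARg arrays lay above both WT arrays. Mad2l1, which binds the activator Cdc20, had 416, 484, 402 and 638 and was higher under RU486 in both genotypes (0.21 in WT and 0.78 in PAX8PPARg). Cdc20 itself had 663, 604, 774 and 1006. Ube2c, the ubiquitin-conjugating enzyme of the anaphase promoting complex, had 1556, 1541, 1572 and 1554, 4 levels within 1.5-fold of each other.

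Birc5 (survivin), part of the chromosomal passenger complex, had the largest RU486 difference in PAX8PPARg. Its signals were 797, 796, 645 and 1287. Both WT arrays were level (-0.001), the PAX8PPARg placebo array was the lowest and the PAX8PPARg RU486 array the highest, a difference of 1.11. Aurkb, the kinase of the same complex, had 223, 177, 229 and 356 (-0.31 in WT and 0.73 in PAX8PPARg), but its second probe set, dimmer, gave -0.77 and 0.02. Aurka, the centrosome kinase, had 453, 426, 464 and 559 and Plk1, the Polo kinase, 90.8, 102, 95.0 and 138. Both were highest on the PAX8PPARg RU486 array, with differences of 0.39 and 0.60 in that genotype and -0.09 and 0.15 in WT.

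Nusap1, a spindle microtubule protein, had the largest RU486 difference in WT. It read 487, 237, 530.3 and 570.0. The WT RU486 array lay below the other 3, which were within 1.5-fold of each other, and the differences were -0.99 in WT and 0.23 in PAX8PPARg. Its second probe set, just above the background range with signals of 17.2, 18.8, 19.8 and 40.3, gave 0.07 in WT. The motor genes divided. Kif11, the motor of spindle bipolarity, had 669, 464, 836 and 894 and was low on the WT RU486 array (-0.51), as on its other probe sets (-0.33 and -0.30), which in PAX8PPARg gave -0.29 and 0.32 beside 0.23. Kif2c, a microtubule depolymerase, had 198, 218, 173 and 279 and was 0.78 in PAX8PPARg, where its further probe sets above background gave 0.53 and 0.57. In WT they gave -0.37 and 0.16 beside 0.13. Kif20a and Prc1, which act at the spindle midzone, had their 4 levels within 1.5-fold, with signals of 693, 722, 717 and 679 for Kif20a and 621, 702, 701 and 695 for Prc1 on their brightest probe sets. Cenpa, the histone of the centromere, had 216, 218, 237 and 346 (0.02 in WT and 0.65 in PAX8PPARg), and Cenpe, the kinetochore motor, 431, 358, 468 and 454 (-0.25 in WT and 0.09 in PAX8PPARg).

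The common proliferation markers differed little in WT. Mki67, the Ki-67 protein of the mitotic chromosome surface, had 3494, 3172, 3166 and 4355, and Top2a, which untangles DNA, had 613, 660.5, 787 and 1019.8. In both the PAX8PPARg RU486 array was the highest. Mki67 differed by -0.14 in WT and 0.59 in PAX8PPARg, and Top2a by 0.11 in WT and 0.50 in PAX8PPARg.

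Both transcription factor genes were higher under RU486 in WT, where the median member was not. E2f1 was higher under RU486 in both genotypes, with 192, 361, 204 and 323 (0.86 in WT and 0.76 in PAX8PPARg), and its second probe set, with 65.5, 129, 73.4 and 128, gave 0.83 and 0.82. It was the only member at least 1.5-fold higher in both, which 4.74% of all genes were. Foxm1 had 66.2, 135, 126 and 166, lowest on the WT placebo array. Its 3 probe sets above background gave 0.88, 0.88 and 2.17 in WT, and 0.49, -0.002 and 0.83 in PAX8PPARg. The direction in WT was thus shared, and the size was not, the last of the 3 being at 13.1 on the WT placebo array, near the background range. For PAX8PPARg minus WT under RU486 they gave 0.21, -0.86 and -0.34, so no direction is read from that comparison. Chek1, the kinase of the replication checkpoint, had 186, 142, 185 and 308 on its brightest probe set (-0.35 in WT and 0.83 in PAX8PPARg). Its next 2 gave -0.67 and 0.56 in WT and -0.23 and -0.17 in PAX8PPARg, so its place among the higher members rests on 1 probe set. Brca1, of DNA repair by recombination, had 209, 216, 291 and 243 and differed by 0.05 in WT and -0.11 in PAX8PPARg. Its further probe sets above background gave -0.55 and 0.44 in PAX8PPARg, so no direction is read there.

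**Figure D4:**
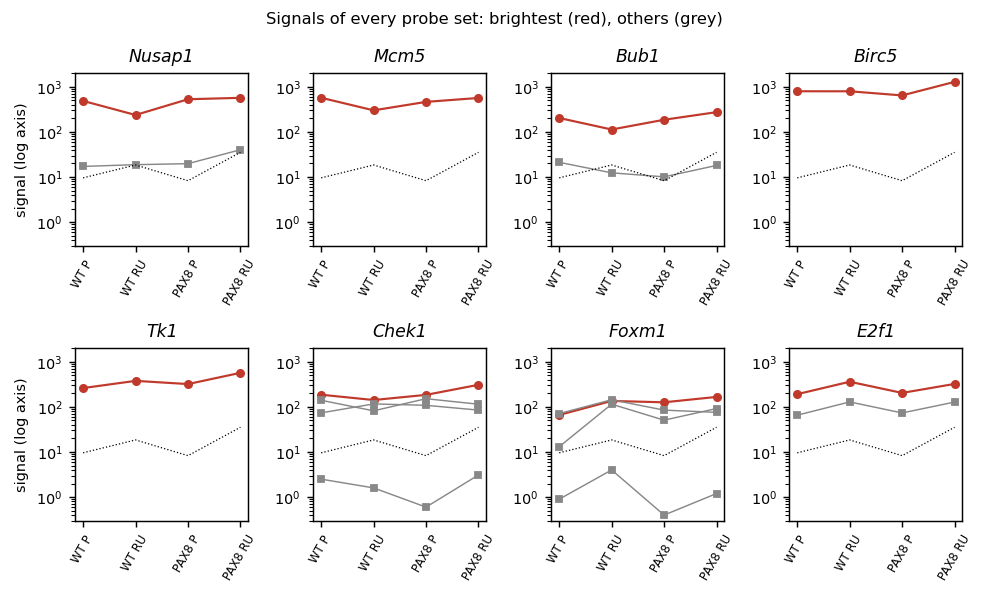
Signals of every probe set of 8 members on the 4 arrays (log axis), with the brightest in red, others in grey and the highest bacterial control as a dotted line; P is placebo, RU is RU486. The 2 E2f1 probe sets run in parallel, while those of Chek1 cross.

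Of the 43 members, 22 had several probe sets. Their 31 further probe sets above background on all arrays had the same sign as the brightest for 27 in WT and 17 in PAX8PPARg, where 7 belonged to members past 1.5-fold and 5 of those 7 shared the sign. The probe sets of the other sign in PAX8PPARg went both ways. Those of Mcm3, Mcm6, Mcm7 and Brca1 were above 0 where the brightest was below 0. Those of Cdt1, Kif11, Prc1, Foxm1 and Chek1 were below 0 where the brightest was above 0. Averaged over all probe sets, the median was -0.13 in WT and 0.38 in PAX8PPARg, with 14 members at least 1.5-fold higher in the latter (21.5% of all genes).

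A wider list of 86 other cell cycle genes, 74 of them measured, is set beside the members by its medians. These were -0.05 for RU486 in WT and 0.34 in PAX8PPARg. PAX8PPARg minus WT had -0.07 under placebo and 0.33 under RU486. In WT 0 of 74 lay past 2-fold on the higher side (7.46% of all genes) and 3, or 4.05%, on the lower side (8.88%): Chaf1b, of histone deposition (-1.46), Rfc4, of clamp loading (-1.31), and Stmn1, a microtubule destabiliser (-1.09). In PAX8PPARg the only such gene was Cdc7, the kinase that fires origins, at -1.16. For RU486 in PAX8PPARg, 16 of 74 (21.6%) were at least 1.5-fold higher, no more than the 22.7% of all genes, and 1 was lower (14.1% of all genes). Under RU486, 24 of 74 (32.4%) were at least 1.5-fold higher in PAX8PPARg than in WT, against 21% of all genes, and 1 was lower (20%). Stmn1, with 5240.0, 2454, 4973 and 7876, had the largest PAX8PPARg minus WT value under RU486 (1.62), followed by Cdca3 (1.53), Pttg1, the securin (1.38), and Exo1 (1.36), among 12 past 2-fold (16.2%, against 10.9% of all genes). The difference of the RU486 effects was past 2-fold on the higher side for 12 genes, or 16.2%, a share near the 15.6% of all genes. They included Stmn1 (1.88), Prim1 (1.74), Rfc4 (1.47) and Mcm10 (1.41), and 1 gene, Cdc7, was past 2-fold on the lower side (-1.12). In PAX8PPARg the mitosis part of the list had a median of 0.42 (n = 42) and the S phase part 0.26 (n = 32).

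**Figure D5:**
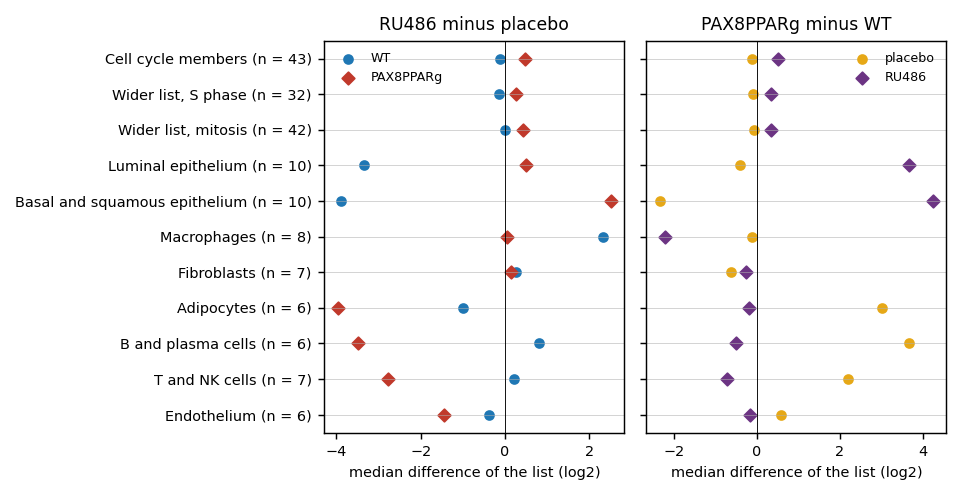
Median difference (log2) of the members, of the wider cell cycle list and of cell type marker lists, for RU486 minus placebo (left) and PAX8PPARg minus WT (right). The member medians run from -0.13 to 0.52, a narrower range than the luminal, basal and macrophage lists, whose medians reach -3.88 and 4.24.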

How the data were processed

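Probe set signals on the deposited linear intensity scale were used as the authors deposited them. Their software and algorithm were not given in the sources used here. A 2% trimmed mean near 499.96 on each array shows a scaling before deposit. Per the labels, cRNA was made from 1 pool of 5 mice per group. Of 22626 non-control probe sets, 20380 had 1 gene symbol, covering 12393 genes, and the brightest by mean signal stood for each gene. A pseudocount of 16 was added before log2, and array medians over non-control probe sets were set equal. Comparisons were counted by size at 1.5-fold and 2-fold, beside all genes. limma 3.58.1 in R 4.3.3 fitted the additive model. The fit was first tested on simulated data. Alternatives were no centring, quantile normalization, pseudocounts of 1 and 64, averaged probe sets, counting only genes at or above the median level, the mean over members, and limma without its level filter. A loess on level was added after seeing the data. By rule, the members past 2-fold, the 3 highest and 3 lowest per comparison, and Mki67, Top2a, Pcna, Cdk1, Birc5, Foxm1 and E2f1 were named with signals, and the others were to be covered by role group. The text goes beyond the rule and gives values for the other members too. Of the wider list, at most 4 genes past 2-fold per direction were named. The members and lists were chosen with earlier results of these data known. Motifs were searched in Python 3.11.15.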

Additional observations from a re-analysis of the deposited data

Results flagged for a closer look

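The medians of the RU486 differences over the members had opposite signs in the genotypes, at -0.13 log2 in WT and 0.48 in PAX8PPARg. The WT median was small. Where genes had a second probe set (2267 genes), its readings departed with a robust SD of 0.20 log2 in WT and 0.26 in PAX8PPARg. The WT median is smaller than that SD, so it is read as near the placebo level and not as a reversal. Of the 43 members, 25 were below 0 in WT and above 0 in PAX8PPARg (28.2% of all genes), and the difference between the genotypes was not tested, as each group had 1 array. Bub1 was picked out in the same way, with -0.77 in WT and 0.66 in PAX8PPARg, also untested.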

How the results depend on the processing

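The medians of the members kept their sign under every alternative run except for PAX8PPARg minus WT under placebo. They ran from -0.14 to -0.08 in WT, from 0.34 to 0.52 in PAX8PPARg, from 0.40 to 0.61 for genotype under RU486 and from 0.48 to 0.66 for the difference of the RU486 effects. Under placebo the genotype median ran from -0.13 to 0.076, the last without centring. Quantile normalization and the loess, which was chosen after seeing the data, also moved it. They gave 22 and 24 of 43 members above 0 (48.3% and 49.1% of all genes). No result of a single member past 1.5-fold changed sign under these alternatives.

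Counts of members past a threshold moved by over 1.5 times in these cases. The share of all genes moves with the setting too: at 1.5-fold higher for RU486 in PAX8PPARg it ran from 12.3% to 28.2%. Shares under the same setting are given below for that comparison at 1.5-fold only, so the other counts are not set against all genes. For RU486 in WT, a pseudocount of 1 gave 2 at least 2-fold higher and 1 lower, averaged probe sets gave 1 higher, and genes above the median level gave 1 at least 1.5-fold higher. For RU486 in PAX8PPARg, 8 were at least 1.5-fold higher without centring (17.8% of all genes) and 9 with a pseudocount of 64 (12.3%). Above the median level it was 11 (13.4% of genes at that level). At least 2-fold higher in PAX8PPARg were 0 without centring and 2 with quantile normalization. For genotype under placebo, 0 were at least 1.5-fold higher with quantile normalization, a pseudocount of 64, averaged probe sets or the level filter. Under RU486, at least 2-fold higher were 5 with quantile normalization, 5 with the added loess, and 1 each with a pseudocount of 64 and averaged probe sets. For the difference of the RU486 effects, at least 2-fold higher were 4 without centring, 4 with a pseudocount of 64 and 5 above the median level, and averaged probe sets gave 1 at least 1.5-fold lower. The counts above the median level cover 33 of the 43 members, so they can only be equal to or lower than the main counts. The cause of the other moves was not tested. The limma fit called 0 members under every alternative. That fit takes the difference of the RU486 effects between genotypes as error, so it cannot call that difference. No paired analysis was possible because each group has 1 array. The 10 members below the median level carry the least signal over background.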
